A study of Mus musculus with 6 samples.

Results

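The cytosolic heat shock proteins are described here through 10 genes of the HSP70, HSP110, HSP90, small heat shock protein and J-domain families, *Hspa8*, *Hspa1a*, *Hspa1b*, *Hspa4*, *Hsph1*, *Hsp90aa1*, *Hsp90ab1*, *Hspb1*, *Dnajb1* and *Dnaja1*. They were taken by symbol from a named list, and all 10 were found among the 24421 gene symbols of each count table. The cells were 3T3-L1 adipocytes, an established mouse line that turns into fat cells in culture, given as strain C57BL/6 in the labels. They were differentiated with insulin, TZD, Dex and IBMX, with Dex and IBMX withdrawn on day 3, infected on day 7 with 100 pfu/cell of an adenovirus, and harvested 72 h later. The control virus carried LacZ (AdLacZ, 3 libraries) and the other carried a codon-optimized murine *Lmo3* (Ad*Lmo3*, 3 libraries), each library coming from a separate infection, so that both groups were infected cells and uninfected cells were not part of the comparison. The comparison asks how *Lmo3* overexpression alters gene expression in adipocytes that are already mature.

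Cytosolic chaperones work as a relay. HSP70 proteins bind unfolded stretches of other proteins in a cycle driven by ATP, J-domain proteins such as DNAJB1 and DNAJA1 deliver substrates and speed up ATP hydrolysis, and HSP110 proteins exchange the spent nucleotide. HSP90 then matures clients such as kinases and steroid receptors, and small heat shock proteins hold unfolded proteins without ATP. Under heat or proteotoxic stress the transcription factor HSF1 binds repeated GAA units in promoters and induces *Hspa1a*, *Hspa1b*, *Hspb1*, *Dnajb1*, *Hsph1* and *Hsp90aa1*, whereas *Hspa8* and *Hsp90ab1* are the constitutive forms.

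The promoters of the genes were examined for such units, since HSF1 acts through such letters. RefSeq promoter windows of GRCm38.p6, from 250 bases before to 50 bases after a start site, matched 7 of the 10 genes, and *Hspa8*, *Hsp90aa1* and *Hsp90ab1* had none. The letters GAANNTTC and TTCNNGAA, a pair of units facing each other or apart, read the same on both strands. At least 1 pair stood in a window of 5 of the 7 genes, *Hspa1a*, *Hspa1b*, *Hsph1*, *Hspb1* and *Dnaja1*. Over all 27025 genes with a window the share was 17.0%. *Hspa4* and *Dnajb1* held no such letters in these windows. The stretches are shown on the strand of the gene, with the units in capitals and positions counted from the start site.
*Hspa1a*, chr17:34972245-34972268, minus strand, -112 to -89: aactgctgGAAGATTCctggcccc
*Hspa1b*, chr17:34959327-34959350, minus strand, -112 to -89: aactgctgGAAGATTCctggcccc
*Hsph1*, chr5:149636354-149636377, minus strand, -41 to -18: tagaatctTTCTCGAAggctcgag
*Hsph1*, chr5:149636287-149636308, minus strand, 29 to 50: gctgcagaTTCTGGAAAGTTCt
*Hspb1*, chr5:135887794-135887837, plus strand, -125 to -82: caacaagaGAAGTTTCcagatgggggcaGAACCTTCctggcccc
*Dnaja1*, chr4:40722336-40722359, plus strand, -132 to -109: agcctctaGAAAATTCtacgaggc
The stretches of *Hspa1a* and *Hspa1b* were the same, and their whole windows were identical at 296 of 300 bases. *Hsph1* held 3 alternating units in its second stretch, where both pairs overlap. Such a run of 3 alternating units with a gap of 2 bases between them, searched on both strands, stood in 0.603% of all 32851 windows.

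The libraries held between 28035639 and 38332335 counts on genes. Levels are given as CPM, each count divided by the library's total and scaled to 1e+06, after TMM normalization, which scales libraries so that most genes do not differ, and changes as log2 fold changes of Ad*Lmo3* against AdLacZ from edgeR's quasi-likelihood test, with p-values adjusted by Benjamini-Hochberg over 12766 tested genes and a threshold of 0.05. No library of the 6 held a count for *Lmo3* (0 in each), so that the labels could not be checked through the transgene. Of 12 adipocyte markers, all 12 were detected and higher in Ad*Lmo3* libraries, and 8 passed (edgeR), where 2.71% of all tested genes passed as higher. The summed level of the 12 ranged from 21841 to 25048 CPM under AdLacZ and from 29674 to 36022 CPM under Ad*Lmo3* libraries. The 8 calls were 2 without AdLacZ replicate 3, 5 without AdLacZ replicate 2 or Ad*Lmo3* replicate 2, and 6 to 8 without any other library (edgeR). For the counts at an unadjusted p in this paragraph, the share over all tested genes was 20.6% (edgeR). Of 10 preadipocyte markers 0 passed in edgeR, DESeq2 or limma voom (0 at an unadjusted p under 0.05 in edgeR), with summed levels of 16795 to 21133 and 16524 to 24463 CPM. The 6 macrophage markers summed to at most 5.86 CPM, and of the 3 tested 0 passed in edgeR, DESeq2 or limma voom (0 at an unadjusted p under 0.05 in edgeR). Of 12 interferon response genes 0 passed in the same fits (0 at an unadjusted p under 0.05 in edgeR), and their summed level ranged from 1335 to 1849 CPM under AdLacZ and from 695 to 3778 CPM under Ad*Lmo3* libraries. All 12 interferon response genes were lowest in Ad*Lmo3* replicate 1 and highest in Ad*Lmo3* replicate 3, so that these libraries stood apart from the rest. Without Ad*Lmo3* replicate 3 all 12 were lower than under AdLacZ (median of their log2 fold changes -0.47) and 1, *Cxcl10*, passed (edgeR). Without Ad*Lmo3* replicate 1 or Ad*Lmo3* replicate 2, 0 of the 12 were lower (medians 0.66 and 0.39) and 0 passed (edgeR). The direction of these genes thus depended on which Ad*Lmo3* library was left out. The part of these shifts in the levels of the heat shock genes was not tested, and in bulk RNA fewer cells of a type and less RNA per cell cannot be told apart.

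No cytosolic heat shock gene passed the test between the groups. Of the 10 genes, 9 had enough counts to be tested, and 0 of the 9 had an adjusted p-value under 0.05 in edgeR, DESeq2 or limma voom. Over all tested genes 4.28% passed, with 2.71% higher and 1.57% lower in Ad*Lmo3* libraries. At an unadjusted p under 0.05 there were 2 of the 9 in edgeR (*Hspa4* and *Hsp90aa1*), 3 in DESeq2 and 2 in limma voom, where edgeR gave 20.6% over all genes. The log2 fold changes ran from -0.24 to 0.06 with a median of -0.11, against a median of 0.00138 over all tested genes. Among the 9 genes, 7 were lower and 2 higher in Ad*Lmo3* libraries. Scaled by library totals alone, *Hspa1a* and *Hspa1b* also turned and 9 were lower, where the median over all tested genes was -0.0719. Without Ad*Lmo3* replicate 3 also 9 were lower, without Ad*Lmo3* replicate 1 7 were lower, and in each 0 of the 9 passed (edgeR; 0 and 2 at an unadjusted p under 0.05). Without AdLacZ replicate 2 or Ad*Lmo3* replicate 2 the number lower was 6, and 0 passed (edgeR). Scaling by library totals moved the calls over all genes from 346 higher and 201 lower to 266 higher and 501 lower.

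**Figure D1:**
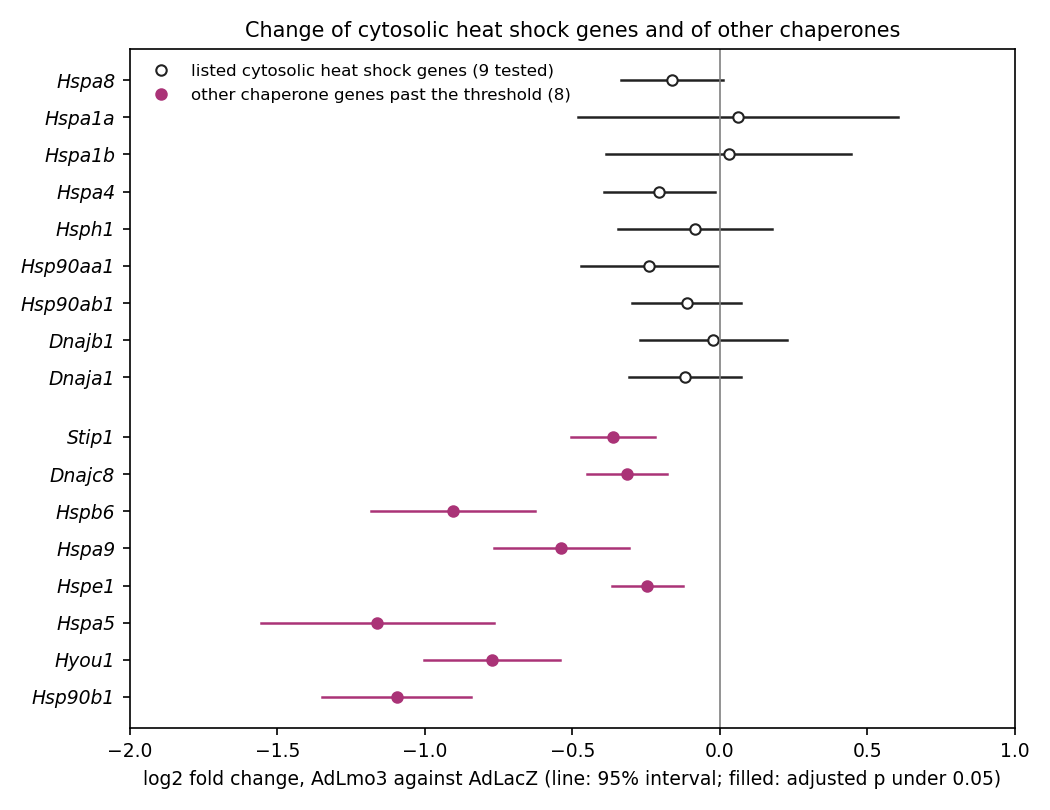
The log2 fold change of Ad*Lmo3* against AdLacZ (horizontal axis, n = 3 libraries each) is plotted for the 9 tested cytosolic heat shock genes and for 8 other chaperone genes past the threshold, with 95% intervals as lines. The cytosolic genes lie between -0.24 and 0.06, and the endoplasmic reticulum genes *Hspa5*, *Hyou1* and *Hsp90b1* lie between -1.16 and -0.77.

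Abundance differed widely between the genes. Per kilobase of merged exon, the mean level in AdLacZ libraries fell in the order *Hsp90ab1* (756 CPM per kb), *Hspa8* (115), *Hsp90aa1* (65.5), *Hspa4* (64.1), *Dnajb1* (20.1), *Hsph1* (13.1), *Dnaja1* (9.18), *Hspa1b* (5.11), *Hspa1a* (0.858) and *Hspb1* (0.0741). Only *Hsp90aa1* and *Hspa4* overlapped as neighbors in this order over the 6 libraries. *Hsp90ab1* stood above 99.8% of the 12293 tested genes with a length, and *Hspa1a* above 16.7%. The constitutive *Hsp90ab1* and *Hspa8* stood at the top, while the inducible genes ran from *Hsp90aa1*, *Dnajb1* and *Hsph1* in the middle to *Hspa1b*, *Hspa1a* and *Hspb1* at the bottom. The lengths come from GENCODE M21, merge all exons of a gene, and do not allow for reads lost to near-identical copies.

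**Figure D2:**
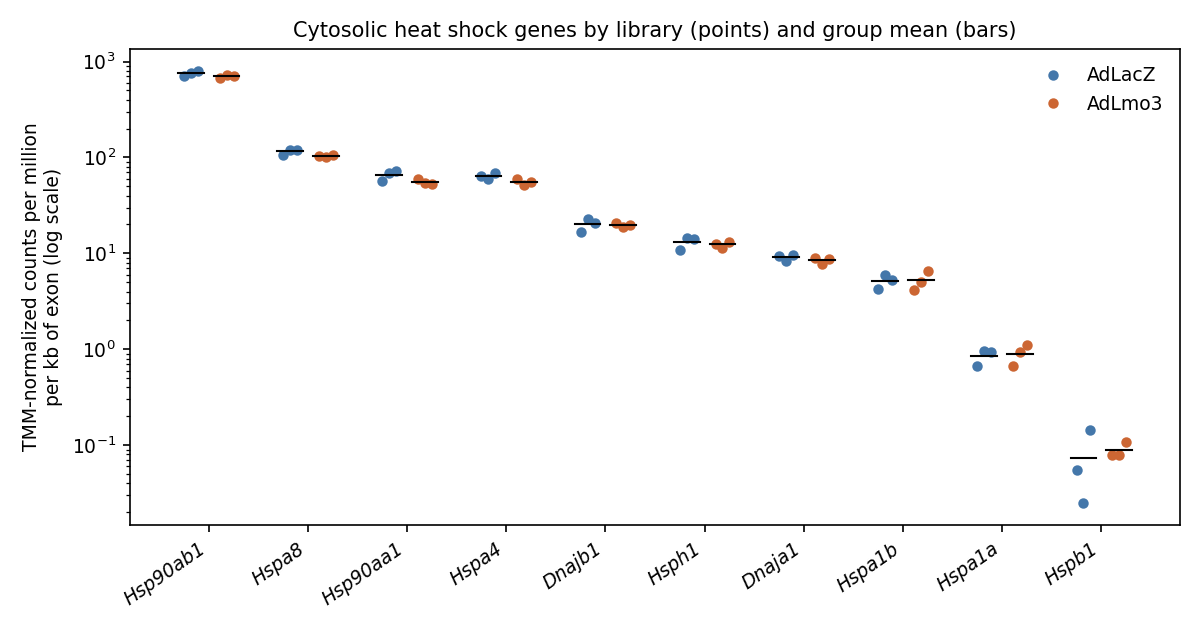
Levels of the 10 genes are plotted in TMM-normalized CPM per kilobase of exon on a log axis, with 1 point for each library and a bar at the mean of each group of 3. The order from *Hsp90ab1* to *Hspb1* covers the range from 756 to 0.0741 in AdLacZ libraries, and *Hspb1*, at 1 to 5 counts, ranges from 0.0248 to 0.143 within the AdLacZ group alone.

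*Hspa8* encodes HSC70, the constitutive HSP70, on chromosome 9 (GRCm38, 40800984 to 40810087). Its level was 455.9, 520.3 and 513 CPM in AdLacZ replicates 1, 2 and 3, and 442, 432 and 456.1 CPM under Ad*Lmo3* replicates 1, 2 and 3. AdLacZ replicates 2 and 3 stood above the other 4 libraries, and the groups overlapped by the margin between AdLacZ replicate 1 and Ad*Lmo3* replicate 3. The means were 496 ± 35.1 and 443 ± 12.2 CPM (SD, 3 libraries each), and the log2 fold change was -0.16 with a 95% interval from -0.34 to 0.01 (adjusted p = 0.271, edgeR). Of the stretches of 75 bases in its coding transcripts, 62.4% also occur in 11 other annotated genes, led by *Gm15459*. The counts of *Hspa8* are uncertain for this reason, and what share of its reads is affected was not measured.

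*Hspa1a* and *Hspa1b* encode the stress-inducible HSP70, each from 1 exon on chromosome 17 (34969190 to 34972156 and 34956436 to 34959238). *Hspa1b* had 11.8, 16.6 and 14.6 CPM under AdLacZ and 11.7, 14.2 and 18.2 CPM under Ad*Lmo3* replicates 1, 2 and 3. *Hspa1a* had 1.995, 2.87 and 2.77 CPM under AdLacZ and 1.998, 2.77 and 3.26 CPM under Ad*Lmo3* replicates 1, 2 and 3. Both genes were low in replicate 1 of either group and highest in Ad*Lmo3* replicate 3, the library in which the interferon response genes were also highest, and the groups overlapped. The part of the one in the other was not tested. Their log2 fold changes were 0.03 for *Hspa1b* (95% interval -0.38 to 0.44, adjusted p = 0.953, edgeR) and 0.06 for *Hspa1a* (-0.48 to 0.60, adjusted p = 0.921, edgeR), and both signs turned without AdLacZ replicate 1 (-0.09 and -0.09) or without Ad*Lmo3* replicate 3 (-0.15 and -0.09). As folds the intervals reach from 0.766 to 1.36 for *Hspa1b* and from 0.717 to 1.52 for *Hspa1a*. The 2 genes share 55.8% and 52.7% of their stretches of read length with each other, and their counts cannot be kept apart with certainty. Summed as 1 gene they gave a log2 fold change of 0.04 (adjusted p = 0.941, edgeR), and *Hspa1b* took between 83.6% and 85.5% of the summed counts in every library. *Hspa1a* rests on 71 to 112 counts, where counting error alone is 9.45% to 11.9% of the value.

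HSP110-type exchange factors were measured by *Hspa4* (APG-2, chromosome 11 from 53259814 to 53300457) and *Hsph1* (HSP105, chromosome 5 from 149614287 to 149636376). *Hspa4* had 352, 332 and 379 CPM under AdLacZ and 328, 285 and 310.2 CPM under Ad*Lmo3* replicates 1, 2 and 3. *Hspa4* was the 1 gene of the 9 whose groups did not overlap. Of all tested genes 26.5% did not overlap, and 13.2% of all tested genes were lower in Ad*Lmo3* without overlap. The log2 fold change of *Hspa4* was -0.20 with a 95% interval from -0.39 to -0.02 (adjusted p = 0.205, edgeR). *Hsph1* had 79.6, 104.7 and 102 CPM under AdLacZ and 91.9, 81.7 and 96.5 CPM under Ad*Lmo3* libraries, with the lowest and the highest value both in AdLacZ. Its log2 fold change was -0.08 with an interval from -0.34 to 0.18 (adjusted p = 0.737, edgeR). Neither gene shares a stretch of read length with another annotated gene.

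HSP90 was measured by *Hsp90ab1* (HSP90β, chromosome 17 from 45567775 to 45573271) and *Hsp90aa1* (HSP90α, chromosome 12 from 110690605 to 110702728). *Hsp90ab1* had 2142, 2263 and 2398 CPM under AdLacZ and 2010.1, 2183 and 2099.96 CPM under Ad*Lmo3* replicates 1, 2 and 3, so that the groups overlapped at Ad*Lmo3* replicate 2. It alone supplied 61.6% to 65.4% of the counts of the 10 genes in a library. Its log2 fold change was -0.11 with an interval from -0.30 to 0.07 (adjusted p = 0.485, edgeR), and the interval reached no fall as large as that of any of the endoplasmic reticulum genes described below. *Hsp90aa1* had 221, 269 and 282 CPM under AdLacZ and 234, 211 and 209.8 CPM under Ad*Lmo3* libraries. AdLacZ replicates 2 and 3 were above every Ad*Lmo3* library, and AdLacZ replicate 1 lay among them. Its log2 fold change of -0.24 was the largest of the 9 genes in size (interval -0.47 to -0.01, adjusted p = 0.230 from edgeR), and without AdLacZ replicate 1 it was -0.34 (adjusted p = 0.0925, edgeR). Of the stretches of *Hsp90aa1*, 45.4% occur in other annotated genes, while *Hsp90ab1* shares 0.664%. The ratio of *Hsp90aa1* to *Hsp90ab1* counts was 0.103, 0.119 and 0.118 in AdLacZ and 0.116, 0.0969 and 0.0999 in Ad*Lmo3* libraries, a difference of -0.12 on the log2 scale (exact permutation test, two-sided, p = 0.2).

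*Dnajb1* (HSP40, chromosome 8 from 83608193 to 83612653) and *Dnaja1* (HDJ2, chromosome 4 from 40722150 to 40737149) encode J-domain co-chaperones of HSP70. *Dnajb1* had 53.9, 73.5 and 65.7 CPM under AdLacZ and 67.1, 60.3 and 62.9 CPM under Ad*Lmo3* replicates 1, 2 and 3. The 3 Ad*Lmo3* values lay inside the range of the AdLacZ values, and the log2 fold change was -0.02 with an interval from -0.27 to 0.23 (adjusted p = 0.943, edgeR). Its sign turned without AdLacZ replicate 2 (0.09) or Ad*Lmo3* replicate 2 (0.01). *Dnaja1* had 81.7, 72.5 and 83.5 CPM under AdLacZ and 76.5, 66.6 and 76.1 CPM under Ad*Lmo3* libraries. The groups overlapped, and its log2 fold change was -0.12 with an interval from -0.31 to 0.07 (adjusted p = 0.479, edgeR). Of its stretches of read length 24.6% occur in other genes, among them 9.04% in *Smu1*, which overlaps its exons on the opposite strand.

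*Hspb1*, which encodes the small heat shock protein HSP25 on chromosome 5 from 135887919 to 135889563, was at the edge of detection. It had 2, 1 and 5 counts in AdLacZ and 3 counts in each Ad*Lmo3* library. A count of 3, taken as the smallest detectable number, corresponds to 0.0783 to 0.107 CPM at these depths and covers counting error only. It failed the count filter and was not tested, and a difference between the groups was not detectable at these counts. Of the stretches of read length of *Hspb1*, 46.4% also occur in 2 other annotated genes, led by *Hsp25-ps1*. What share of its reads is affected was not measured.

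Among AdLacZ libraries, replicate 1 was the lowest for 7 of the 9 tested genes, and replicates 2 and 3 were the highest for 5 and 4. Among Ad*Lmo3* libraries, replicate 3 was the highest for *Hspa8*, *Hspa1a*, *Hspa1b* and *Hsph1*, and replicate 1 for the 4 genes *Hspa4*, *Hsp90aa1*, *Dnajb1* and *Dnaja1*. Replicate 2 was the lowest for 5 and replicate 1 for 3. The standard deviation between AdLacZ libraries was 14.4% of the mean for *Hsph1*, 15.3% for *Dnajb1* and 16.7% for *Hspa1b*, against 5.66% for *Hsp90ab1* and 6.64% for *Hspa4*. Counting error was at most 4.88% for each of these, below the spread between libraries in all 5. Without AdLacZ replicate 1 all 9 genes were lower in Ad*Lmo3* libraries, and still 0 of the 9 passed the threshold in edgeR (2 at an unadjusted p under 0.05). Leaving this library out raises the AdLacZ mean of the 7 genes for which it was the lowest. Without AdLacZ replicate 2 or Ad*Lmo3* replicate 2, 6 of the 9 were lower and 0 passed (edgeR; 1 and 0 at an unadjusted p under 0.05). The 10 genes together held 0.353%, 0.373% and 0.391% of the counts in AdLacZ and 0.321%, 0.326% and 0.321% in Ad*Lmo3* replicates 1, 2 and 3. As summed CPM after normalization this was 3632 ± 221 and 3311 ± 41.2 (SD, n = 3 each).

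**Figure D3:**
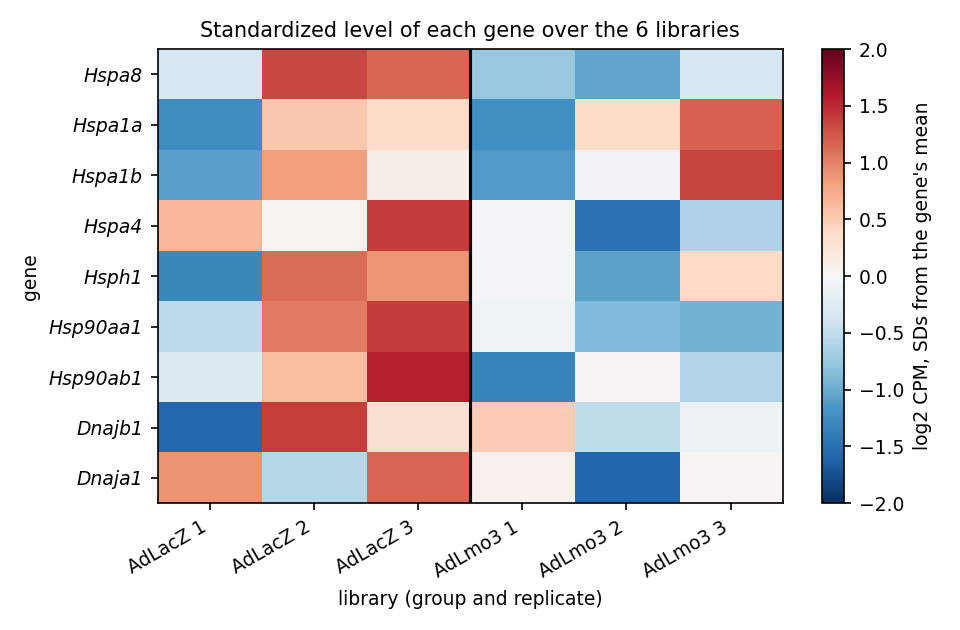
Each cell shows the log2 CPM of 1 of the 9 tested genes in 1 library, in standard deviations from the mean of that gene over the 6 libraries, with AdLacZ on the left and Ad*Lmo3* on the right of the line. AdLacZ replicate 1 holds the lowest AdLacZ value of 7 of the 9 genes.

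By the root mean square difference between standardized log2 CPM over the 6 libraries, *Hif1an* (0.101), *Armc5* (0.163) and *Npat* (0.189) were among the tested genes whose pattern was most like the mean of the 9, where the median of all other tested genes was 1.28. These genes were picked for the smallest differences among all tested genes outside the list, so that their small values follow from the choice. The members themselves lay between 0.287 (*Hspa8*) and 1.02 (*Dnaja1*) from their mean. The 3 genes had log2 fold changes from -0.11 to -0.06, and 0 of the 3 had an adjusted p under 0.05 (edgeR, lowest 0.555).

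The endoplasmic reticulum and mitochondria hold their own members of these families. *Hspa5* (BiP), *Hyou1* (GRP170) and *Hsp90b1* (GRP94), which fold proteins inside the endoplasmic reticulum, fell by 1.16, 0.77 and 1.09 on the log2 scale (adjusted p = 0.0123, 0.00780 and 0.00352, edgeR). The calls of *Hspa5* and *Hyou1* were lost without AdLacZ replicate 3 (0.0711 and 0.0558), and that of *Hspa5* also without Ad*Lmo3* replicate 2 (0.0691). Each was set against its cytosolic relative within the same library, where scaling drops out. *Hsp90b1* and *Hsp90ab1* had nearly equal counts in AdLacZ libraries, with ratios of 0.930, 1.07 and 1.02, and the ratio was 0.590, 0.465 and 0.486 in Ad*Lmo3* libraries. The counts of *Hspa8* are uncertain because of the shared stretches given above. The ratio of *Hspa5* to *Hspa8* counts, not scaled by length, was 7.66, 9.14 and 8.93 in AdLacZ and 5.39, 3.89 and 3.67 in Ad*Lmo3* libraries. That of *Hyou1* to *Hsph1* was 4.14, 3.70 and 3.61 against 2.59, 2.35 and 2.13. The levels of the 3 endoplasmic reticulum genes alone also did not overlap between groups, nor did those of 26.5% of all tested genes. All 3 ratios separated the groups without overlap, with differences of -0.98, -1.01 and -0.70 on the log2 scale. Each gave p = 0.1 in a two-sided exact permutation test, the smallest that 3 against 3 libraries allow, and an adjusted p of 0.133 over 4 ratios, so that this design cannot reach the threshold.

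**Figure D4:**
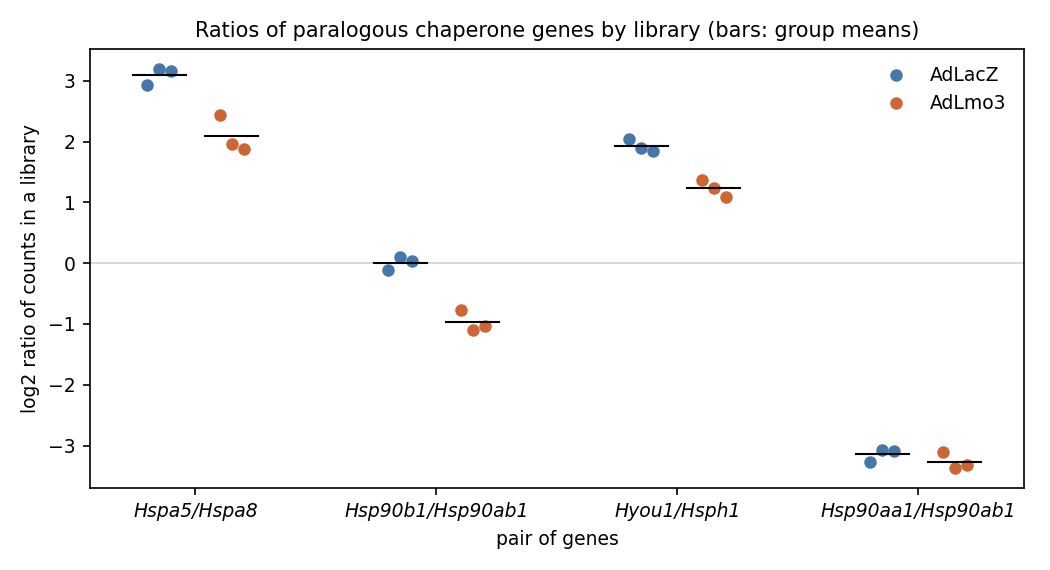
The log2 ratio of the counts of a pair of genes within a library is plotted for 4 pairs, with points for the 3 AdLacZ and 3 Ad*Lmo3* libraries and bars at the group means. The 3 ratios of an endoplasmic reticulum gene to its cytosolic relative are lower in every Ad*Lmo3* library by 0.70 to 1.01 on average, and the groups overlap for *Hsp90aa1* to *Hsp90ab1*.

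Other genes of the chaperone network were counted by list. Over 10 lists with 75 genes, 72 genes were tested and 8 passed the threshold, all of them lower in Ad*Lmo3* libraries, 3 being the endoplasmic reticulum genes. Of the 69 tested genes in the other lists, 5 passed and 50 were lower, with a median log2 fold change of -0.09, where 1.57% of all tested genes passed as lower and 49.6% were lower. The 5 genes were *Stip1*, *Dnajc8*, *Hspb6*, *Hspa9* and *Hspe1*.

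Over all tested genes 4.28% were called, and 1.57% as lower (edgeR). Of 16 HSP90 co-chaperones and adaptors 1, *Stip1*, was called in edgeR and limma voom, and 2, *Stip1* and *Sugt1*, in DESeq2. *Stip1* encodes HOP, which hands clients from HSP70 to HSP90. It had 164, 178 and 171 CPM under AdLacZ and 133, 131 and 134 CPM under Ad*Lmo3* libraries, and fell by 0.36 on the log2 scale (SE 0.0621, adjusted p = 0.0192, edgeR). Without AdLacZ replicate 2, AdLacZ replicate 3 or Ad*Lmo3* replicate 2 its adjusted p was 0.0572, 0.0972 and 0.0983. *Dnajc8*, a nuclear J-domain gene and the 1 called among 12 others of its family, fell by 0.31 (SE 0.0591, adjusted p = 0.0265, edgeR), and lost the call without any 1 of the 6 libraries (0.0562 to 0.124). *Hspb6* (HSP20), the 1 called among 4 tested other small heat shock protein genes, had 44.2, 60.1 and 52.9 CPM under AdLacZ and 28.5, 30.4 and 25.0 CPM under Ad*Lmo3* libraries. It fell by 0.90 (SE 0.121, adjusted p = 0.00893, edgeR), and had an adjusted p of 0.0558 without AdLacZ replicate 3. Its relatives *Cryab*, *Hspb2* and *Hspb8* did not pass, *Hspb7* was not tested, and *Hspb3* had no count in any library.

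Of 7 mitochondrial chaperones all 7 were lower and 2 passed in edgeR or limma voom. Over all tested genes 49.6% were lower and 1.57% passed as lower (edgeR). In DESeq2, and in edgeR with library totals alone, 4 of the 7 passed, with *Hspd1* and *Dnaja3* added. *Hspa9*, the mitochondrial HSP70, had 1881, 2249 and 2267 CPM under AdLacZ and 1556, 1493 and 1362 CPM under Ad*Lmo3* libraries, and fell by 0.54 (SE 0.0995, adjusted p = 0.0255, edgeR). Its call was lost without AdLacZ replicate 2, AdLacZ replicate 3, Ad*Lmo3* replicate 2 or Ad*Lmo3* replicate 3 (0.0741, 0.123, 0.108 and 0.0707). *Hspe1*, the HSP10 lid of the mitochondrial chaperonin, fell by 0.25 (SE 0.0526, adjusted p = 0.0417, edgeR), and lost the call without any 1 of the 6 libraries (0.0874 to 0.148). All 8 subunits of TRiC, the cytosolic chaperonin that folds actin and tubulin, were lower, by a median log2 fold change of -0.14 and with 7 of 8 not overlapping between groups (13.2% of all tested genes were lower without overlap), and 0 passed in edgeR (3 at an unadjusted p under 0.05, 0 called in limma voom and 1, *Cct2*, in DESeq2). Over all tested genes 20.6% had an unadjusted p under 0.05 (edgeR). *Cct2* had the largest log2 fold change of the 8 TRiC subunits (-0.24, adjusted p = 0.103, edgeR).

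For the counts at an unadjusted p that follow, the share over all tested genes was 20.6% (edgeR). Among the 4 heat shock factors and their binding protein 0 passed in edgeR or limma voom (1 at an unadjusted p under 0.05 in edgeR) and 1, *Hsf2*, in DESeq2. *Hsf2* had a log2 fold change of -0.32 (adjusted p = 0.0609, edgeR), and *Hsf1* had 36.4 ± 2.82 CPM under AdLacZ and 37.5 ± 2.07 CPM under Ad*Lmo3* libraries (SD, 3 libraries each; log2 fold change 0.04, interval -0.14 to 0.22, adjusted p = 0.819 from edgeR). *Hsf4* had the largest change of this list (0.57, adjusted p = 0.446, edgeR) at a mean of 0.523 CPM in AdLacZ libraries. Of 5 other tested cytosolic HSP70 and HSP110 genes 0 passed in edgeR or limma voom (3 at an unadjusted p under 0.05 in edgeR) and 1 in DESeq2, *Hspa12a*, at a log2 fold change of 0.40 (adjusted p = 0.0808, edgeR). Of 7 BAG and HSPBP1 exchange factors of HSP70, 4 were higher and 0 passed in edgeR or limma voom (4 at an unadjusted p under 0.05 in edgeR). The 1 that passed in DESeq2 was *Bag1*, at 0.23 (adjusted p = 0.112, edgeR). Of 6 subunits of prefoldin, which hands nascent actin and tubulin to TRiC, 0 passed in edgeR, DESeq2 or limma voom (1 at an unadjusted p under 0.05 in edgeR), with *Pfdn2* at -0.18 (adjusted p = 0.155, edgeR).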

How the data were processed

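The deposited values are counts of reads per gene symbol, 1 table per library and not normalized. The authors sequenced single reads of 75 bp, mapped them with STAR (2.5.0b, per the labels) to mm10, and named DESeq2 1.6.3. The counting program, strand setting and annotation are not given in the sources used here. Lines for reads with no gene (7.15% to 8.94%) or several genes (0.476% to 0.543%) were left out. The counts were fitted in edgeR 4.0.16 under R 4.3.3 (filterByExpr, TMM, quasi-likelihood test) on all 6 libraries. DESeq2 1.42.0, limma voom (limma 3.58.1), other scaling and filters, a replicate block and leaving out each library were alternatives. Intervals are the log2 fold change plus or minus the 95% t quantile times its standard error. On simulated counts for this comparison (12680 genes) edgeR recovered 86 of 99 genes changed by 1 and 34 of 100 changed by 0.5 on the log2 scale, and 9.77% of its calls were genes not changed, more than the threshold of 0.05 sets. Exon lengths, positions and shared stretches of read length came from GENCODE M21 (GRCm38), and promoters from RefSeq (GRCm38.p6). Exact tests used SciPy 1.17.1. Named were all members, list genes past the threshold or else the largest change in a list, the endoplasmic reticulum relatives and genes among the 5 most like the members, of which some are not reported here. *Hsf1*, *Hsf2*, *Cryab*, *Hspb2*, *Hspb3*, *Hspb7*, *Hspb8*, *Sugt1*, *Hspd1*, *Dnaja3*, *Smu1* and *Cxcl10* were named after their values were seen. Members and lists were chosen with earlier results of these data known.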

Additional observations from a re-analysis of the deposited data

How the results depend on the processing

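The count of 0 of the cytosolic heat shock genes past the threshold held under all 13 alternatives to edgeR's quasi-likelihood fit without a block. *Hspa8*, *Hspa4*, *Hsph1*, *Hsp90aa1*, *Hsp90ab1* and *Dnaja1* kept a negative log2 fold change in each of them. The sign turned for *Hspa1a* (-0.0104) and *Hspa1b* (-0.0440) with library totals alone, and for *Hspa1b* (-0.00584) in limma voom. Leaving out single libraries gave from -0.0947 to 0.24 for *Hspa1a*, from -0.15 to 0.17 for *Hspa1b* and from -0.13 to 0.0859 for *Dnajb1*. The genes called over the whole table numbered 547, 1110 with DESeq2 and 77 to 501 when single libraries were left out. Of the genes in the chaperone lists 8 were called, 15 with DESeq2, 13 with library totals alone and 1 to 6 when single libraries were left out, the 1 being without AdLacZ replicate 3.

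The groups share replicate numbers. Same-numbered libraries deviated from their group means with correlations across genes of 0.03, 0.18 and 0.18. AdLacZ replicates 2 and 3 correlated best with the library of the same number, and AdLacZ replicate 1 with Ad*Lmo3* replicate 3 (0.11). Libraries of different numbers correlated from -0.26 to 0.15. These values do not settle whether the numbers are pairs. The main fit did not take them as pairs, and a replicate block was an alternative. With the replicate block 498 genes over the whole table, 0 of the cytosolic heat shock genes and 6 genes of the chaperone lists were called, *Dnajc8* (adjusted p = 0.0532, edgeR) and *Hspe1* (0.0726) being lost. *Hspe1* was also lost without a count filter (0.0679). Levels near 3 counts, as for *Hspb1* with 1 to 5 counts, are not resolved at this depth.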
